A study of Mus musculus with 24 samples.

Results

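Ribosome biogenesis genes and polyamine genes that the transcription factor Myc is known to activate were followed through radiation-induced B-cell leukemia of the mouse. The set holds 54 genes, chosen by symbol: 50 of them have a probe set with a single gene symbol, out of 19938 genes named on the arrays, and all 50 were among the 15647 genes tested. Sms (spermine synthase) and Ppan, a 60S assembly factor, lie only on probe sets that carry a second symbol. Noc2l, another 60S factor, and Eif4g1, the scaffold of the cap-binding complex, were not analysed here.

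The arrays measured messenger RNA in 24 samples of mouse bone marrow, which the labels call biological replicates. Leukemic samples were labelled as B cells of marrow that bore tumors, 10 with 1 functional allele of the B-lineage transcription factor Pax5 (Pax5+/-) and 4 wild-type (WT). The preleukemic ones, 7 Pax5+/- and 3 WT, were labelled as marrow cells at the pro-B and pre-B stages. All mice of all 4 groups had received 2 Gy of ionizing radiation. The labels give 3 weeks after irradiation for every sample, leukemic ones included, so the age of the leukemias is not known here, and they give no strain, sex or batch. Stage and material go together in this design: tumor-bearing marrow stands against pro-B and pre-B cells, and the share of each cell type was not measured. In bulk samples, fewer cells of a type and less RNA per cell cannot be told apart.

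Ribosomes are built in the nucleolus. RNA polymerase I copies the ribosomal DNA into a long precursor RNA, small nucleolar ribonucleoproteins (snoRNPs) modify that RNA, the small-subunit processome cuts out and folds the part for the 40S subunit, and a separate set of factors assembles the 60S subunit. Myc binds promoters of genes at each of these steps, often at the E-box CACGTG, and growing B-cell precursors and lymphomas are a classic setting for this activity. Polyamines are small cations made from ornithine that growing cells need for translation. Odc1 (ornithine decarboxylase) and Srm (spermidine synthase) make them, and Odc1 is among the earliest described Myc targets.

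The promoters were searched for the E-box, because it is the sequence through which Myc and its partner Max bind. RefSeq promoter windows of GRCm38.p6, from 250 bases before to 50 bases after the annotated start, were at hand for 47 of the 54 genes. At least 1 window held CACGTG, which reads the same on both strands, in 13 of the 47 genes (27.7%). The share was 8.09% among all 27025 genes with such a window and 10.7% among the tested genes with a window. The sites below are shown for 8 of these genes, 12 bases to either side where the window allows, with the E-box in capitals and on the strand of the gene.
Nop2: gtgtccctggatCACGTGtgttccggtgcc
Tsr1: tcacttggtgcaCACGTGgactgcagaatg
Mybbp1a: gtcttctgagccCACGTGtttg
Wdr43: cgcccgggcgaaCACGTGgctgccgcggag
Utp20: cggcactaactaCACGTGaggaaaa
Pes1: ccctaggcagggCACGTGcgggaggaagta
Imp4: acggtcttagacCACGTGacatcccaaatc
Utp18: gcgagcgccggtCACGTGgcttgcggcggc

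These stretches lie at chr6:125131811-125131840 (Nop2, + strand), chr11:74898092-74898121 (Tsr1, + strand), chr11:72441355-72441376 (Mybbp1a, + strand), chr17:71616220-71616249 (Wdr43, + strand), chr10:88826765-88826789 (Utp20, - strand), chr11:3963965-3963994 (Pes1, + strand), chr1:34439696-34439725 (Imp4, + strand) and chr11:93885769-93885798 (Utp18, - strand). The other genes with the motif were Eif4e, Rrn3, Ltv1, Eif4g1 and Sms. The sites shown are examples and no sample of all sites. Their genes had log2 differences from 0.26 to 1.83 between leukemic and preleukemic Pax5+/- arrays, and Eif4e, Rrn3 and Ltv1 had 0.34, 0.18 and 0.41. The E-box of Nop2 begins 60 bases before the annotated start. It is shown again in the 250 bases upstream of that start, chr6:125131633-125131882, to give the sequence around a site of a gene that doubled in leukemia.
Nop2 upstream: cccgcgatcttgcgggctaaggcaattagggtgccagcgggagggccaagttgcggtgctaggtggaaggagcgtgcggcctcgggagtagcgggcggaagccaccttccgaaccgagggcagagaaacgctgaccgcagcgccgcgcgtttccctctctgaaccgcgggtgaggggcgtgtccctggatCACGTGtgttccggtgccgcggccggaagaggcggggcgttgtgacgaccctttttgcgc

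A match of letters is a description and no measured binding. Nor did the motif order the genes by their change: the 11 tested genes with an E-box had a median log2 difference of 0.57 between leukemic and preleukemic Pax5+/- arrays, and the 32 tested genes with a window and no E-box had a median of 0.73.

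Some facts of the whole series touch these results. Preleukemic WT array 1, leukemic WT array 1 and leukemic Pax5+/- array 3 stood apart from their groups in Myc or in marker genes. Preleukemic WT array 1 had a mean of 10.22 over 16 granulocyte genes, against 6.64 and 6.73 on the other preleukemic WT arrays, and a mean of 9.83 over 23 mitosis genes, against 7.79 and 7.94. Array medians ran from 6.104 to 6.219 on leukemic and from 6.226 to 6.296 on preleukemic arrays. Y-linked genes were low on all 4 leukemic WT arrays and high on all 3 preleukemic WT arrays. In WT, stage therefore cannot be told apart from sex. The mean over 14 B-lineage genes ran from 9.78 to 10.73 on leukemic and from 10.96 to 11.31 on preleukemic Pax5+/- arrays. In WT it ran from 8.98 to 10.25 on leukemic and from 11.09 to 11.32 on preleukemic arrays. Cd79a, 1 bright gene of this list and a signalling chain of the B-cell receptor, averaged 11.54 ± 0.39 on leukemic Pax5+/- arrays (SD, n = 10), 13.04 ± 0.12 on preleukemic Pax5+/- arrays (n = 7), 11.46 ± 0.70 on leukemic WT arrays (n = 4) and 13.10 ± 0.24 on preleukemic WT arrays (n = 3).

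Myc itself was far higher in leukemia. On the log2 scale of the deposited signals, Myc had a lowest value of 9.09, a median of 11.41 and a highest value of 11.93 on leukemic Pax5+/- arrays, against 7.18, 7.70 and 8.06 on preleukemic Pax5+/- arrays. It was 9.97, 11.48, 11.76 and 11.57 on the leukemic WT arrays, against 9.37, 7.75 and 7.82 on the preleukemic WT arrays. The groups did not overlap in either genotype, but 1 low leukemia in each genotype and preleukemic WT array 1 lay between the rest. The log2 difference was 3.58 ± 0.33 (SE, 11.9-fold, limma adjusted p = 7.23e-09) in Pax5+/- and 2.88 ± 0.51 (7.37-fold, limma adjusted p = 0.00015) in WT. Without preleukemic WT array 1 the WT difference was 3.41.

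Nearly the whole ribosome-building set rose with leukemia in both genotypes. In Pax5+/- mice 44 of the 50 measured members were higher in leukemic than in preleukemic samples and 2 were lower (limma, Benjamini-Hochberg adjusted p under 0.05 over all 15647 genes), where 27.8% of all genes were called higher and 35.1% lower (62.9% in either direction). In WT mice 41 were higher and 1 was lower, against 18.7% and 20.4% of all genes (39.1% in either direction). The split of all genes depended on scaling: with arrays centred on their medians, 5066 were higher and 3502 lower in Pax5+/- (4354 and 5485 as deposited), and 3379 and 2177 in WT (2924 and 3191 as deposited). The members then numbered 44 higher and 1 lower in Pax5+/- and 42 higher and 0 lower in WT. The median log2 difference of the members was 0.72 in Pax5+/- and 0.91 in WT, and the median of all genes tested was -0.05 in both. Members that at least doubled numbered 12 in Pax5+/- (6.73% of all genes did so) and 17 in WT (5.64%). The lowest leukemic value lay above the highest preleukemic value for 27 members in Pax5+/- (11.7% of all genes) and for 43 in WT (18.9%). In all, 40 members were higher in both genotypes, Eif4ebp1 was lower in both, and Bysl, Ddx10 and Imp3 were called in neither. The share of all genes called alike in both genotypes was not counted.

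**Figure D1:**
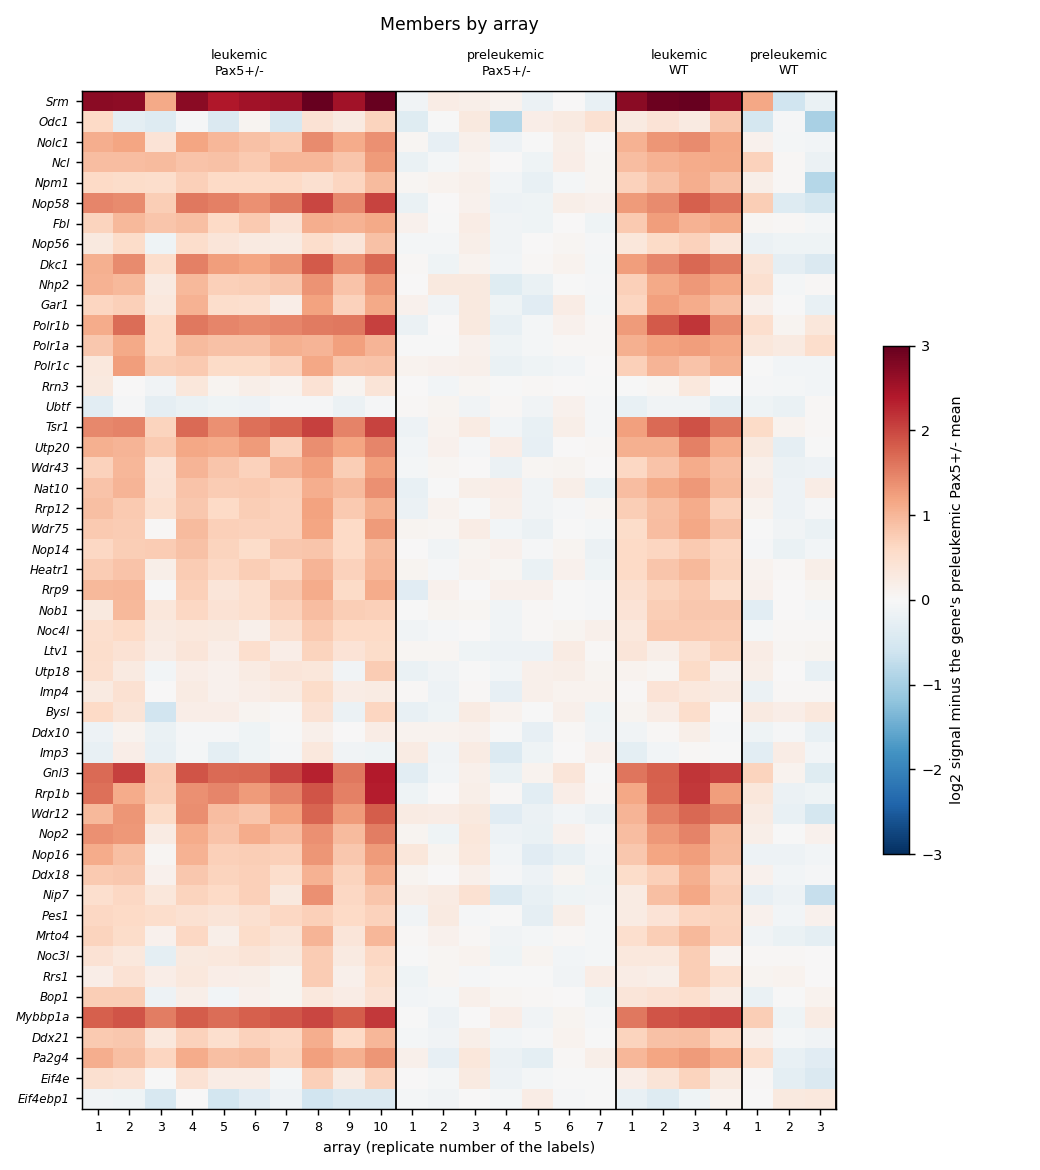
Log2 signal of the 50 measured members (rows, ordered by role) on each of the 24 arrays (columns), as the difference from the gene's mean over the 7 preleukemic Pax5+/- arrays; red is higher and blue is lower. Srm is the darkest row in leukemia, and column 3 of the leukemic Pax5+/- block is paler than its neighbours.

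The polyamine enzymes split. Srm, which makes spermidine from putrescine, changed more than any other member of the set in both genotypes. Its log2 signal had a lowest value of 9.24, a median of 10.73 and a highest value of 11.27 on leukemic Pax5+/- arrays, against 7.87, 8.11 and 8.31 on preleukemic Pax5+/- arrays. The leukemic WT arrays held 10.79, 11.04, 11.16 and 10.70, against 9.27, 7.49 and 7.90 on the preleukemic WT arrays. Within each genotype the groups did not overlap. Leukemic Pax5+/- array 3, at 9.24, and preleukemic WT array 1, at 9.27, lay between the other leukemic and the other preleukemic arrays. The log2 difference was 2.54 ± 0.23 (SE, 5.83-fold, limma adjusted p = 4.67e-09) in Pax5+/- and 2.70 ± 0.35 (6.52-fold, limma adjusted p = 4.83e-06) in WT. Without preleukemic WT array 1 the WT difference was 3.23.

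Odc1, which catalyses the rate-limiting step of the pathway and lies just upstream of Srm, did not follow it in Pax5+/-. Odc1 had a lowest value of 8.46, a median of 8.96 and a highest value of 9.62 on leukemic Pax5+/- arrays, against 8.10, 9.15 and 9.39 on preleukemic Pax5+/- arrays. These ranges overlapped almost fully, and the difference was 0.04 with a 95% interval from -0.37 to 0.45 (limma adjusted p = 0.867). In WT, Odc1 was 9.21, 9.36, 9.23 and 9.76 on leukemic arrays, against 8.43, 8.92 and 7.98 on preleukemic arrays. The WT groups did not overlap, and the difference of 0.94 ± 0.31 (SE, 1.92-fold) passed the test (limma adjusted p = 0.0193). That call ended without leukemic WT array 4 (0.82, limma adjusted p = 0.056) and without preleukemic WT array 3 (0.71, limma adjusted p = 0.130). Odc1 has a second probe set, which gave 0.12 (adjusted p = 0.602) in Pax5+/- and 0.79 (adjusted p = 0.0481) in WT.

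**Figure D2:**
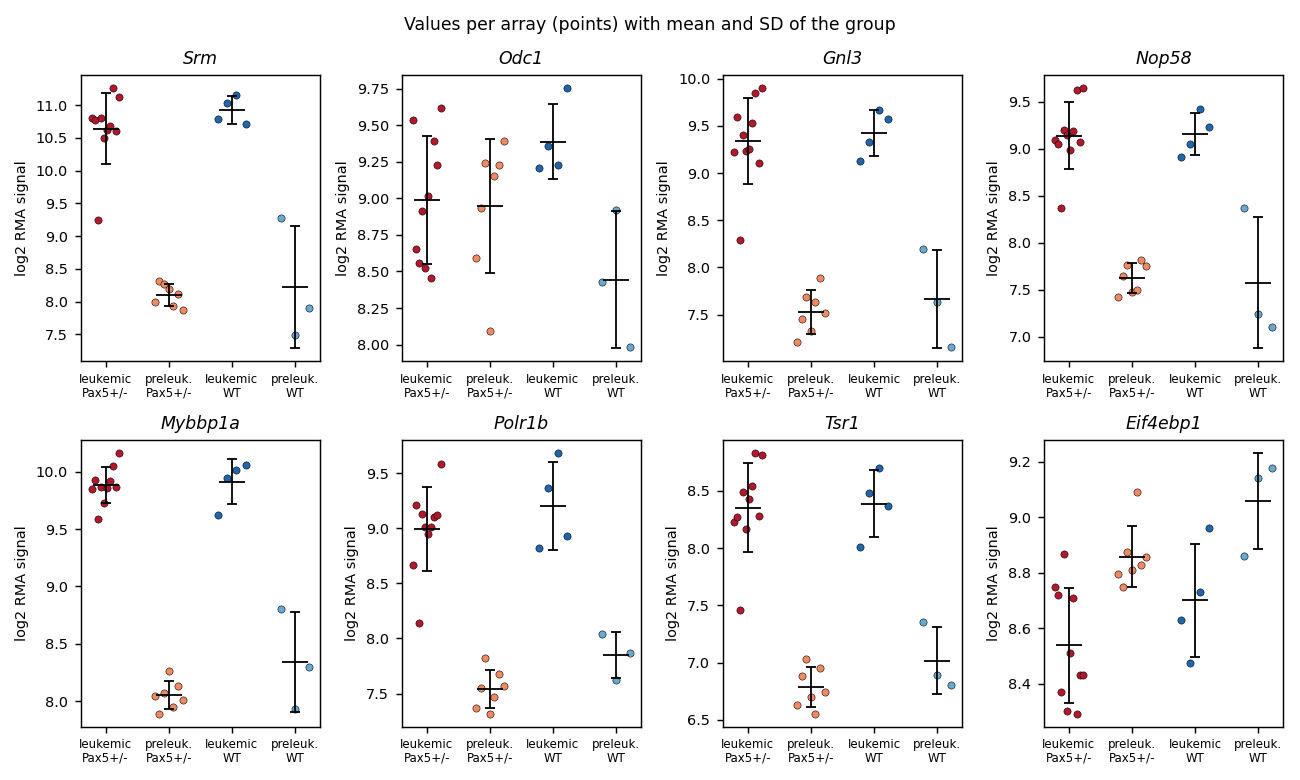
Log2 signal (vertical axis; each panel has its own range) of 8 members in leukemic Pax5+/-, preleukemic Pax5+/-, leukemic WT and preleukemic WT samples; points are arrays, long bars are group means and whiskers are SDs. Srm, Gnl3, Nop58, Mybbp1a, Polr1b and Tsr1 are higher in both leukemic groups, Odc1 overlaps between the Pax5+/- stages, and Eif4ebp1 is lower in leukemia.

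The abundant scaffold proteins of the nucleolus rose in both genotypes, all 3 of 3, where 27.8% of all genes rose in Pax5+/- and 18.7% in WT. Nolc1, a chaperone of snoRNPs, was 1.04 ± 0.11 higher in Pax5+/- (SE, 2.06-fold) and 1.24 ± 0.17 higher in WT (2.37-fold). Ncl (nucleolin) averaged 11.11 ± 0.14 on leukemic and 10.16 ± 0.14 on preleukemic Pax5+/- arrays (SD, n = 10 and 7), a difference of 0.94 ± 0.09 (SE). The Ncl difference in WT was 0.88 ± 0.14. Npm1 (nucleophosmin), which carries pre-ribosomal particles, rose by 0.62 ± 0.11 in Pax5+/- and by 1.10 ± 0.16 in WT. The largest adjusted p among these 6 differences was 5.54e-05 (limma). Another 3 probe sets pair Npm1 with a second symbol and were not used.

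The core proteins of both snoRNP classes rose together. In the box C/D particles, which guide ribose methylation, Nop58 was the most changed. Nop58 ran from 8.37 over a median of 9.12 to 9.65 on leukemic Pax5+/- arrays, against 7.42, 7.64 and 7.81 on preleukemic Pax5+/- arrays, and from 8.91 to 9.43 on leukemic WT arrays, against 8.37, 7.24 and 7.11 on preleukemic WT arrays. The lowest leukemic and the highest preleukemic value, both 8.37, came from different genotypes, and within a genotype the groups did not overlap. The Nop58 difference was 1.51 ± 0.16 (SE, 2.85-fold, limma adjusted p = 7.33e-08) in Pax5+/- and 1.58 ± 0.25 (2.99-fold, limma adjusted p = 5.06e-05) in WT. Fbl (fibrillarin), the methyltransferase, rose by 0.85 ± 0.09 in Pax5+/- and 1.05 ± 0.14 in WT. Nop56, the partner of Nop58, rose by 0.39 ± 0.09 in Pax5+/-, where its groups overlapped, and by 0.64 ± 0.15 in WT.

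In the box H/ACA particles, which guide pseudouridylation, Dkc1 is the pseudouridine synthase. Dkc1 averaged 9.79 ± 0.37 on leukemic and 8.47 ± 0.09 on preleukemic Pax5+/- arrays (SD, n = 10 and 7), a difference of 1.32 ± 0.14 (SE, 2.50-fold, limma adjusted p = 5.74e-08). In WT the Dkc1 difference was 1.61 ± 0.22 (SE, 3.04-fold, limma adjusted p = 7.30e-06). Its partners Nhp2 and Gar1 rose by 0.91 ± 0.13 and 0.70 ± 0.13 in Pax5+/- and by 0.92 ± 0.21 and 1.00 ± 0.21 in WT. For both partners the Pax5+/- groups overlapped, through leukemic array 3 in Nhp2 (8.45) and leukemic array 7 in Gar1 (8.80).

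Among the members, the subunits of RNA polymerase I changed more than its initiation factors Rrn3 and Ubtf, a contrast that was not tested. The catalytic subunits Polr1a and Polr1b and the shared subunit Polr1c rose in both genotypes. Polr1b had a lowest value of 8.14, a median of 9.06 and a highest value of 9.59 on leukemic Pax5+/- arrays, against 7.32, 7.55 and 7.82 on preleukemic Pax5+/- arrays. It was 8.82, 9.37, 9.68 and 8.93 on leukemic WT arrays, against 8.04, 7.63 and 7.87 on preleukemic WT arrays. The groups did not overlap in either genotype, and the Polr1b difference was 1.45 ± 0.15 (SE, 2.74-fold, limma adjusted p = 4.15e-08) in Pax5+/- and 1.35 ± 0.23 (2.56-fold, limma adjusted p = 0.000112) in WT. Polr1a rose by 0.96 ± 0.07 in Pax5+/- and 0.78 ± 0.10 in WT, and Polr1c rose by 0.78 ± 0.10 and 0.97 ± 0.16.

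The initiation factors moved little. Rrn3, which brings the polymerase to the ribosomal promoter, rose by 0.18 ± 0.07 in Pax5+/- (SE, limma adjusted p = 0.0239) and differed by 0.16 ± 0.10 in WT (limma adjusted p = 0.226). Ubtf, which coats active ribosomal genes, fell by 0.14 ± 0.05 in Pax5+/- (limma adjusted p = 0.025) with overlapping groups and differed by -0.09 ± 0.08 in WT (limma adjusted p = 0.37). The fall of Ubtf did not pass the test once arrays were centred on their medians (-0.07, limma adjusted p = 0.294), and it also missed the threshold without preleukemic Pax5+/- array 2 (limma adjusted p = 0.0535) or 6 (limma adjusted p = 0.0638).

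**Figure D3:**
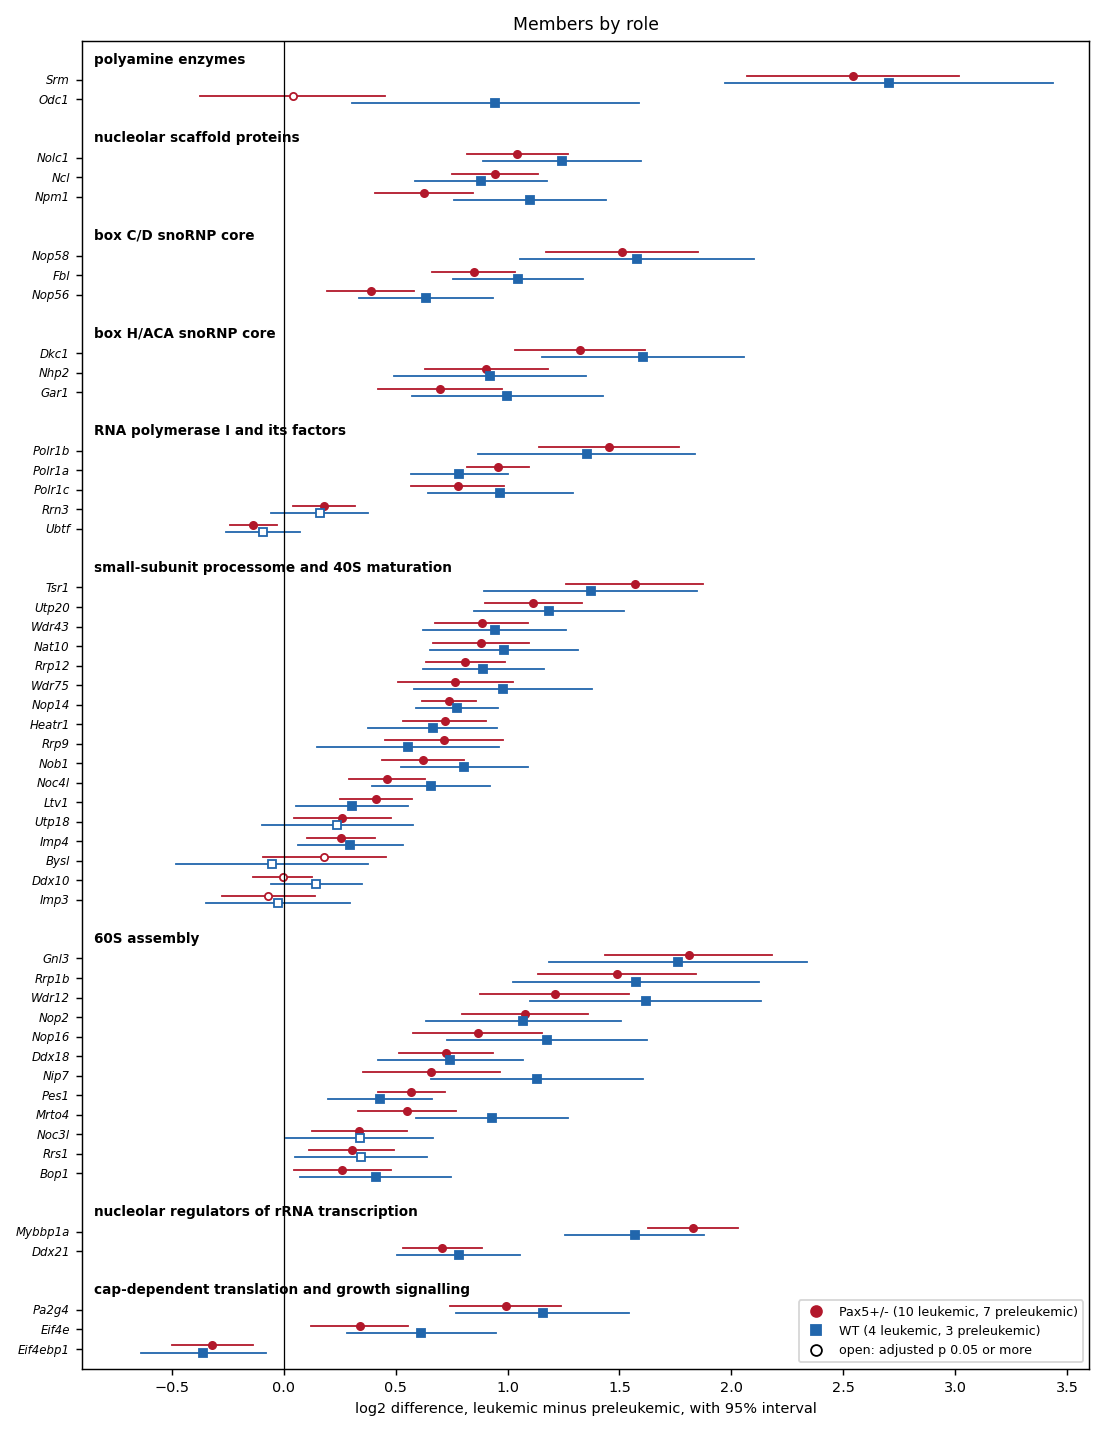
Log2 difference between leukemic and preleukemic arrays (horizontal axis) of the 50 measured members by role, with 95% intervals; circles are Pax5+/- and squares are WT, and open symbols have an adjusted p of 0.05 or more. Srm lies at 2.54 and 2.70, most members lie right of 0 in both genotypes, and Eif4ebp1 lies left of 0 in both.

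Of the 17 members of the small-subunit processome and 40S maturation, 14 rose in Pax5+/- and 13 in WT, and none was called lower. Of all genes, 27.8% rose and 35.1% fell in Pax5+/-, and 18.7% rose and 20.4% fell in WT. Tsr1, a late 40S factor that resembles translational GTPases, changed most. Tsr1 had a lowest value of 7.46, a median of 8.35 and a highest value of 8.83 on leukemic Pax5+/- arrays, against 6.56, 6.74 and 7.03 on preleukemic Pax5+/- arrays. On leukemic WT arrays it was 8.01, 8.48, 8.70 and 8.37, against 7.35, 6.89 and 6.81 on preleukemic WT arrays. Within each genotype the groups did not overlap, and the difference was 1.57 ± 0.15 (SE, 2.96-fold, limma adjusted p = 1.01e-08) in Pax5+/- and 1.37 ± 0.23 (2.59-fold, limma adjusted p = 7.94e-05) in WT. Utp20, a large scaffold of the processome, rose by 1.12 ± 0.10 in Pax5+/- and 1.18 ± 0.16 in WT. Wdr43, another subunit of the processome, rose by 0.88 ± 0.10 and 0.94 ± 0.15, and Nat10, the RNA cytidine acetyltransferase, rose by 0.88 ± 0.10 and 0.99 ± 0.16. Tsr1, Utp20 and Wdr43 are among the genes whose E-boxes are printed above. So are the 40S members Imp4 and Utp18, which rose by only 0.26 and 0.26 in Pax5+/-, and Ltv1, with 0.41, holds the motif too.

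A middle group of 40S factors rose by less than doubling in both genotypes. Rrp12, Wdr75, Nop14, Heatr1, Nob1, the nuclease that trims the end of 18S RNA, and Noc4l rose by 0.46 to 0.81 in Pax5+/- and by 0.66 to 0.98 in WT. Rrp9, a protein of the U3 particle, Ltv1 and Imp4 rose by 0.72, 0.41 and 0.26 in Pax5+/- and by 0.55, 0.30 and 0.30 in WT. The WT calls of Rrp9, Ltv1 and Imp4 rested on small margins (limma adjusted p = 0.0294, 0.0488 and 0.0412), and leaving out leukemic WT array 3 or preleukemic WT array 2 or 3 ended each of them. Leaving out leukemic WT array 2 also ended the calls of Rrp9 and Imp4, leukemic WT array 4 those of Ltv1 and Imp4, leukemic WT array 1 that of Ltv1 and preleukemic WT array 1 that of Imp4. Without leukemic WT array 3 their adjusted p was 0.0761, 0.0965 and 0.0866.

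The other 4 factors of the 40S subunit were not called in at least 1 genotype. Imp3, the partner of Imp4 in the same complex, differed by -0.07 ± 0.10 (SE, limma adjusted p = 0.555) in Pax5+/- and -0.02 ± 0.16 (limma adjusted p = 0.912) in WT. Its values were 11.06, 11.27, 11.37 and 11.34 on leukemic WT arrays, against 11.03, 11.56 and 11.26 on preleukemic WT arrays, which overlapped. The helicase Ddx10 differed by -0.01 (95% interval -0.14 to 0.13) in Pax5+/- and by 0.15 (-0.06 to 0.35) in WT. Bysl (bystin) differed by 0.18 (-0.09 to 0.46) in Pax5+/- and by -0.05 (-0.48 to 0.38) in WT. Without leukemic Pax5+/- array 3, in which it was at its lowest, the Bysl difference in Pax5+/- was 0.27 and passed the test (limma adjusted p = 0.0377). Utp18 rose by 0.26 ± 0.10 in Pax5+/- (limma adjusted p = 0.0344) and differed by 0.24 ± 0.16 in WT (limma adjusted p = 0.247). The Pax5+/- call of Utp18 ended without preleukemic array 1, 2 or 4 or leukemic array 1, 7 or 10, with adjusted p values from 0.0505 to 0.0768.

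All 12 measured 60S assembly factors rose in Pax5+/-, where 27.8% of all genes rose, and 10 of them rose in WT, where 18.7% did. Gnl3 (nucleostemin), a nucleolar GTPase abundant in dividing progenitors, changed most. Gnl3 had a lowest value of 8.29, a median of 9.33 and a highest value of 9.91 on leukemic Pax5+/- arrays, against 7.20, 7.51 and 7.89 on preleukemic Pax5+/- arrays. The leukemic WT arrays held 9.13, 9.33, 9.66 and 9.57, against 8.19, 7.63 and 7.16 on the preleukemic WT arrays. No leukemic value of Gnl3 reached down to a preleukemic value of either genotype. Its difference was 1.81 ± 0.18 (SE, 3.50-fold, limma adjusted p = 2.05e-08) in Pax5+/- and 1.76 ± 0.28 (3.39-fold, limma adjusted p = 4.27e-05) in WT. Rrp1b, an early 60S factor, rose by 1.49 ± 0.17 (SE) in Pax5+/- and 1.57 ± 0.26 in WT, and Nop2, the rRNA methyltransferase whose promoter is printed above, by 1.08 ± 0.14 and 1.07 ± 0.21.

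The 3 subunits of the PeBoW complex, which is needed to process the precursor of the large-subunit RNA, changed by unequal amounts. Wdr12 rose by 1.21 ± 0.16 in Pax5+/- (SE, 2.32-fold) and by 1.62 ± 0.25 in WT (3.07-fold). Pes1 rose by 0.57 ± 0.07 (1.48-fold) and 0.43 ± 0.11 (1.35-fold). Bop1 rose by 0.26 ± 0.11 (1.20-fold, limma adjusted p = 0.0348) and 0.41 ± 0.16 (1.33-fold, limma adjusted p = 0.0496). The Bop1 calls were unstable. In Pax5+/- the call ended without preleukemic array 1, 2 or 7 or leukemic array 1, 2 or 10 (adjusted p from 0.0560 to 0.0698), and in WT it ended without any 1 of the WT arrays except leukemic array 4 (adjusted p from 0.0602 to 0.148).

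The other 60S members spread between these. Nop16, Ddx18, Nip7 and Mrto4 rose by 0.55 to 0.87 in Pax5+/- and by 0.74 to 1.18 in WT. Noc3l and Rrs1, a recruiter of the 5S RNP, rose by 0.34 ± 0.10 and 0.30 ± 0.09 in Pax5+/- (SE, limma adjusted p = 0.00709 and 0.00696). In WT they differed by 0.34 ± 0.16 and 0.34 ± 0.14, and missed the threshold (limma adjusted p = 0.0939 and 0.0591). Their WT groups nevertheless did not overlap: Noc3l was 7.86, 7.86, 8.28 and 7.65 on leukemic arrays, against 7.57, 7.59 and 7.56 on preleukemic arrays. Rrs1 was 5.80, 5.75, 6.33 and 6.10 on leukemic WT arrays, against 5.67, 5.68 and 5.60 on preleukemic WT arrays. Rrs1 lay close to the dim level used as a filter, which was 5.18 to 5.35 across the arrays.

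Mybbp1a and Ddx21, nucleolar proteins that act on ribosomal RNA transcription, rose in both genotypes. Mybbp1a, a Myb-binding protein of the nucleolus, had a lowest value of 9.59, a median of 9.87 and a highest value of 10.16 on leukemic Pax5+/- arrays, against 7.89, 8.05 and 8.26 on preleukemic Pax5+/- arrays. On leukemic WT arrays it was 9.62, 9.95, 10.01 and 10.06, against 8.80, 7.93 and 8.30 on preleukemic WT arrays. All 14 leukemic values of Mybbp1a lay above all 10 preleukemic values. The difference was 1.83 ± 0.10 (SE, 3.55-fold, limma adjusted p = 1.16e-12) in Pax5+/- and 1.57 ± 0.15 (2.96-fold, limma adjusted p = 8.24e-08) in WT. Ddx21, an RNA helicase, rose by 0.71 ± 0.09 and 0.78 ± 0.13.

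The genes of cap-dependent translation went in both directions. Eif4e, the cap-binding protein, rose by 0.34 ± 0.10 in Pax5+/- (SE, limma adjusted p = 0.00752) and 0.62 ± 0.16 in WT (limma adjusted p = 0.00451) on its brightest probe set. Its 2 other probe sets did not bear this out: 1 gave 0.17 (adjusted p = 0.112) in Pax5+/- and 0.19 (adjusted p = 0.294) in WT, and the dimmest gave -0.25 (adjusted p = 0.000466) and -0.09 (adjusted p = 0.381). The direction of Eif4e is therefore uncertain. Pa2g4, a growth-regulated nucleolar and cytoplasmic protein, rose by 0.99 ± 0.12 in Pax5+/- and 1.16 ± 0.19 in WT.

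Eif4ebp1, which binds the cap-binding protein and holds translation down, was the only member called lower in both genotypes. Eif4ebp1 had a lowest value of 8.29, a median of 8.47 and a highest value of 8.87 on leukemic Pax5+/- arrays, against 8.75, 8.83 and 9.09 on preleukemic Pax5+/- arrays. It was 8.63, 8.48, 8.73 and 8.96 on leukemic WT arrays, against 8.86, 9.14 and 9.18 on preleukemic WT arrays. The groups overlapped in both genotypes at their edges. It fell by 0.32 ± 0.09 in Pax5+/- (SE, 1.25-fold, limma adjusted p = 0.00315) and by 0.36 ± 0.13 in WT (1.28-fold, limma adjusted p = 0.038). The WT call ended without leukemic WT array 1, 2 or 3 and without preleukemic WT array 2 or 3 (adjusted p from 0.0568 to 0.154), and also with centred arrays (-0.29, limma adjusted p = 0.0982).

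Odc1, Fbl, Wdr12, Ddx18 and Mrto4 also have a second probe set under the same symbol. Where the probe sets of these genes and of Eif4e lie in the genome was not checked. Some, including those used for the main values, may read a copy of the gene elsewhere in the genome. For Fbl, Wdr12, Ddx18 and Mrto4 it gave the same calls, with differences of 1.18, 1.23, 0.71 and 0.63 in Pax5+/- and of 1.29, 1.58, 0.57 and 0.98 in WT. The correlation between the 2 probe sets over all 24 arrays ran from 0.89 in Odc1 to 0.99 in Mrto4, and in Eif4e the other probe sets correlated with the brightest at 0.50 and -0.54.

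The rest of the pathway was read from lists of 130 further genes, of which 122 were tested. In Pax5+/- 62 of the 122 rose and 30 fell, with a median log2 difference of 0.17. In WT 49 rose and 13 fell, with a median of 0.25. Among all genes tested, 27.8% rose and 35.1% fell in Pax5+/-, and 18.7% rose and 20.4% fell in WT. Among the 122 genes, rises were thus more frequent than among all genes, and falls were not.

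Of 38 further 40S factors, 22 rose and 6 fell in Pax5+/-, and 18 rose and 1 fell in WT. Pno1, a partner of the nuclease Nob1 on the pre-40S particle, rose by 1.33 ± 0.12 in Pax5+/- (SE) and 1.38 in WT, and Rcl1, an early processome protein, by 1.11 ± 0.12 and 1.14. Utp23 fell by 0.51 ± 0.06 in Pax5+/- and by 0.33 in WT, and Ngdn fell by 0.40 ± 0.06 in Pax5+/- and differed by -0.07 in WT (limma adjusted p = 0.575). Of 40 further 60S factors, 22 rose and 8 fell in Pax5+/-, and 20 rose and 4 fell in WT. In the 40S and the 60S list the falls were below the shares of all genes (35.1% in Pax5+/- and 20.4% in WT). Mdn1, the giant ATPase that strips factors from the pre-60S particle, rose by 1.36 ± 0.21 in Pax5+/- and 0.95 in WT, and Rsl1d1 by 1.12 ± 0.09 and 1.36. Tex10, a partner in rRNA processing, fell by 0.78 ± 0.14 in Pax5+/- and by 0.64 in WT, and the helicase Ddx54 fell by 0.60 ± 0.07 and by 0.60.

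Of 17 further genes of RNA polymerase I and of snoRNP assembly, 10 rose and 6 fell in Pax5+/-, and 7 rose and 3 fell in WT. These falls were near the shares of all genes (35.1% in Pax5+/- and 20.4% in WT). The box H/ACA assembly factors Naf1 and Shq1 rose by 0.93 ± 0.12 and 0.79 ± 0.11 in Pax5+/- (SE) and by 0.79 and 1.00 in WT. Top1, a DNA topoisomerase active on ribosomal genes, fell by 0.50 ± 0.09 in Pax5+/- and differed by -0.10 in WT (limma adjusted p = 0.556). Ttf1, which ends polymerase I transcription, fell by 0.47 ± 0.06 in Pax5+/- and by 0.43 in WT.

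Of 13 other polyamine genes tested, 3 rose and 3 fell in Pax5+/-, where 27.8% of all genes rose and 35.1% fell, and 1 rose and 1 fell in WT, where the shares were 18.7% and 20.4%. These counts are not above those shares. Mtap, which recycles the by-product of the spermidine step, averaged 7.86 ± 0.31 on leukemic and 7.04 ± 0.17 on preleukemic Pax5+/- arrays (SD, n = 10 and 7), a rise of 0.82 ± 0.13 (SE), and it rose by 0.96 in WT. Atp13a3, a polyamine transporter, rose by 0.68 ± 0.10 in Pax5+/- and differed by 0.34 in WT (limma adjusted p = 0.0868). Sat1, the acetyltransferase that starts polyamine breakdown, averaged 9.03 ± 0.41 on leukemic and 9.96 ± 0.21 on preleukemic Pax5+/- arrays (SD), a fall of 0.94 ± 0.15 (SE, 1.92-fold, limma adjusted p = 2.01e-05), and it differed by -0.45 in WT (limma adjusted p = 0.134). Atp13a2, another polyamine transporter, fell by 0.36 ± 0.11 in Pax5+/- and by 0.76 in WT.

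Of 14 other genes of cap-dependent initiation, 5 rose and 7 fell in Pax5+/-, and 3 rose and 4 fell in WT. Of all genes, 27.8% rose and 35.1% fell in Pax5+/-, and 18.7% rose and 20.4% fell in WT. The rises were thus near the shares of all genes. The list had a median log2 difference of -0.16 in Pax5+/- and -0.21 in WT. Eif5a, the only known protein that carries the spermidine-derived amino acid hypusine, rose by 0.68 ± 0.10 in Pax5+/- (SE) and 0.93 in WT, and the helicase Eif4a1 by 0.61 ± 0.05 and 0.71. Mknk1, a kinase of the cap-binding protein, fell by 0.78 ± 0.08 and by 0.72, and the divergent cap-binding protein Eif4e3 fell by 0.74 ± 0.13 and by 1.13.

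**Figure D4:**
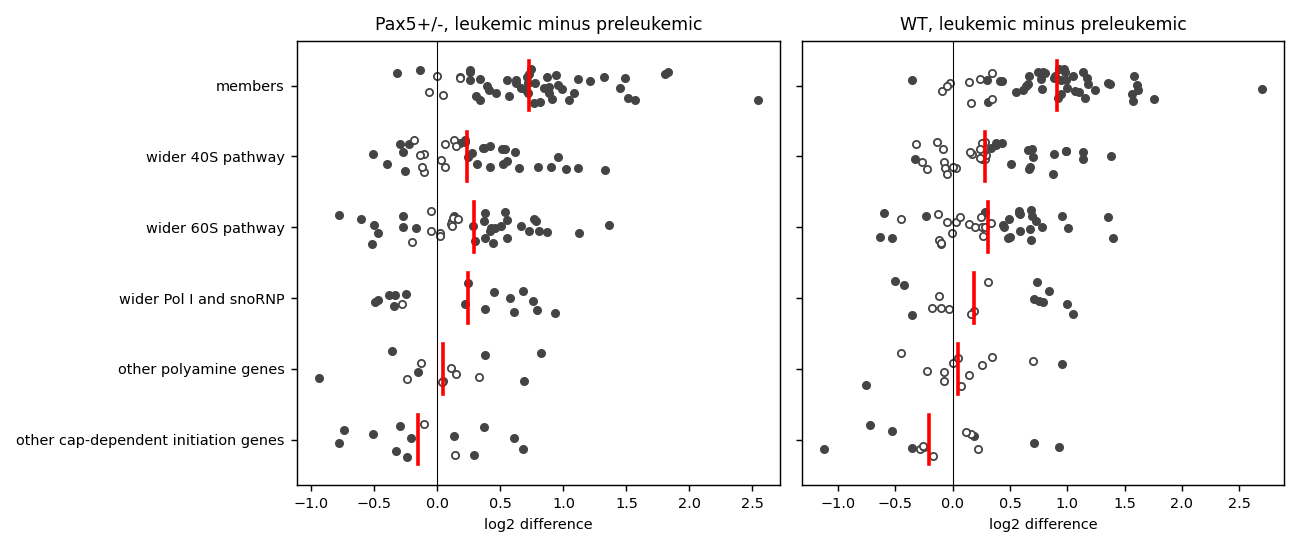
Log2 difference between leukemic and preleukemic arrays (horizontal axis) of the 50 measured members and of 5 lists of other pathway genes, in Pax5+/- (left) and WT (right); each point is a gene, filled where the adjusted p is under 0.05 and open where it is not, and red bars are list medians. The members' medians, 0.72 and 0.91, lie right of the median of every other list.

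In the main fits no single member was called different between Pax5+/- and WT, in leukemia or before it. In leukemic samples none of the 50 members was called different between Pax5+/- and WT (limma; 0.0511% of all genes were higher and 0.109% lower, 0.16% in all, and 1 member had an unadjusted p under 0.05). The members' differences ran from -0.40 to 0.10, with 8 of 50 above 0. Their median was -0.09, and that of all genes tested was -0.0006. The share of all genes above 0 was not counted, and a shift of the set as a whole was not tested. Polr1a came closest (-0.21 ± 0.08 SE, limma adjusted p = 0.462), followed by Noc4l (-0.20 ± 0.10, limma adjusted p = 0.663). For Srm the leukemic genotypes differed by -0.28 with a 95% interval from -0.85 to 0.28, so a difference of either sign within those bounds could not be seen here. Pax5 RNA itself ran from 6.87 to 11.37 on leukemic Pax5+/- and from 6.34 to 10.74 on leukemic WT arrays. Before leukemia it ran from 11.34 to 11.59 and from 11.47 to 12.16. The leukemic contrast thus compares genotypes and not Pax5 RNA levels. Y-linked means ran from 4.72 to 8.77 on leukemic Pax5+/- and from 4.73 to 4.95 on leukemic WT arrays.

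Before leukemia none of the 50 members was called either (limma; 0.262% of all genes were higher and 0.524% lower, 0.786% in all, and 2 members had an unadjusted p under 0.05). Polr1a was nearest again. It had a lowest value of 7.73, a median of 7.85 and a highest value of 7.99 on preleukemic Pax5+/- arrays, against 8.20, 8.14 and 8.38 on preleukemic WT arrays. These groups did not overlap, and the difference was -0.38 ± 0.09 (SE, limma adjusted p = 0.058). It passed the test in a fit of these groups alone (limma adjusted p = 0.0274) and without the 3 arrays that stand apart (-0.40, limma adjusted p = 0.0433). Mybbp1a came next (-0.29 ± 0.14, limma adjusted p = 0.509).

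No member's stage difference differed detectably between the genotypes (limma; 0.179% of all genes had a larger and 0.00639% a smaller value in Pax5+/-, 0.185% in all, and 2 members had an unadjusted p under 0.05). Odc1 showed the widest gap, with a stage difference 0.90 ± 0.37 (SE) smaller in Pax5+/- than in WT, a 95% interval from -1.67 to -0.14 and an adjusted p of 0.488 (limma). Npm1 followed, with -0.48 ± 0.19 (limma adjusted p = 0.49). The call of Odc1 in WT and its absence in Pax5+/- is thus no shown difference between the genotypes. For Srm the stage differences differed by -0.16 with an interval from -1.03 to 0.71.

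The leukemias differed among themselves in how far the set was raised, and the members moved together. The mean over the 50 measured members was 9.21, 9.28, 8.75, 9.25, 9.06, 9.11, 9.11, 9.50, 9.17 and 9.52 on leukemic Pax5+/- arrays 1 to 10, against 8.35 to 8.58 on the preleukemic Pax5+/- arrays. It was 9.09, 9.32, 9.49 and 9.28 on the leukemic WT arrays, against 8.59, 8.38 and 8.34 on the preleukemic WT arrays. Every leukemia lay above every preleukemic sample in this mean, and leukemic Pax5+/- array 3 lay closest to them. On that array 28 of the 50 members exceeded the highest of the 7 preleukemic Pax5+/- values, compared with 38 to 47 on the other leukemic Pax5+/- arrays. On the leukemic WT arrays 44 to 47 exceeded the highest of the 3 preleukemic WT values, a bar set by fewer arrays. Across all genes, 29.3% to 32.5% exceeded the highest preleukemic value of the same genotype on each leukemic array.

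The SD over arrays was larger among leukemic than among preleukemic Pax5+/- samples for 44 of the 50 members (88%), where 65.9% of all genes showed this. The median SD of a member was 0.26 on leukemic and 0.14 on preleukemic Pax5+/- arrays, and the median over all genes was 0.17 and 0.12. Over the 14 leukemias the median correlation between pairs of members was 0.63, and between pairs of all genes it was 0.01. Nhp2, Wdr75 and Heatr1 followed the mean of the other members most closely (r = 0.98, 0.96 and 0.96), and Eif4ebp1, Nop14 and Polr1c least (r = 0.12, 0.41 and 0.44). These correlations are descriptions over 14 arrays that share 1 normalization for all genes.

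Against Myc, all 50 members correlated positively over the 14 leukemias, and the correlation was weaker without the 2 leukemias of lowest Myc. The median r was 0.59, from 0.14 to 0.83, and 30 members had an r over 0.5. Myc ran from 11.18 to 11.93 in 12 leukemias and was lower in leukemic Pax5+/- array 3 (9.09) and leukemic WT array 1 (9.97). Without these 2 the median r was 0.19, 41 members remained positive and 5 had an r over 0.5. Over the 10 leukemic Pax5+/- arrays alone, which hold 1 of the 2, the median r was 0.60.

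In a fit of each gene on Myc with a term for genotype, no member passed the test after adjustment over all genes (limma; 0.00639% of genes had a positive and 0.0895% a negative slope past the threshold, 0.0959% in all). At an unadjusted p under 0.05 the count was 28 of 50, all with a positive slope, where 10.1% of all genes passed. Without the 2 low leukemias it was 3 of 50, against 9.2% of all genes. The members' median slope was 0.13 per unit of Myc over the 12 leukemias and 0.16 over the 14, and 39 of 50 slopes were positive over the 12. The median slope of all genes was 0.05 over the 12 and 0.0074 over the 14, so the members lay less far above it over the 12. The mean over the members followed Myc with r = 0.71 and rho = 0.56, and with r = 0.24 over the other 12 leukemias.

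The 6 members with the highest correlation were Gnl3 (r = 0.83, rho = 0.76), Tsr1 (0.82, 0.60), Mybbp1a (0.78, 0.76), Heatr1 (0.76, 0.46), Polr1b (0.76, 0.59) and Wdr43 (0.75, 0.71). Their limma adjusted p values over all genes ran from 0.0744 to 0.152, and since these members were picked for their correlation the values are a description. Without the 2 low leukemias their r was 0.52, 0.28, 0.43, 0.16, 0.44 and 0.47. The slope per unit of Myc was 0.43 ± 0.08 (SE) for Gnl3, 0.37 ± 0.07 for Tsr1 and 0.17 ± 0.04 for Mybbp1a, and the highest among the members was that of Srm, 0.47 ± 0.11. Differences between slopes were not tested. Tsr1 passed the adjusted test only without leukemic Pax5+/- array 2 (limma adjusted p = 0.0463).

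The 6 with the lowest correlation were Nop14 (r = 0.14, rho = 0.38), Fbl (0.16, 0.30), Odc1 (0.20, 0.12), Eif4ebp1 (0.25, 0.13), Ncl (0.25, 0.53) and Polr1c (0.27, 0.52). Fbl and Nop14, at the bottom of this order, were nevertheless higher in leukemia in both genotypes with no overlap between stages. Without the 2 low leukemias Ncl and Polr1c had r = 0.43 and 0.50, and Odc1 had r = -0.25. The second probe set of Fbl gave r = 0.41 and that of Odc1 gave 0.17.

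**Figure D5:**
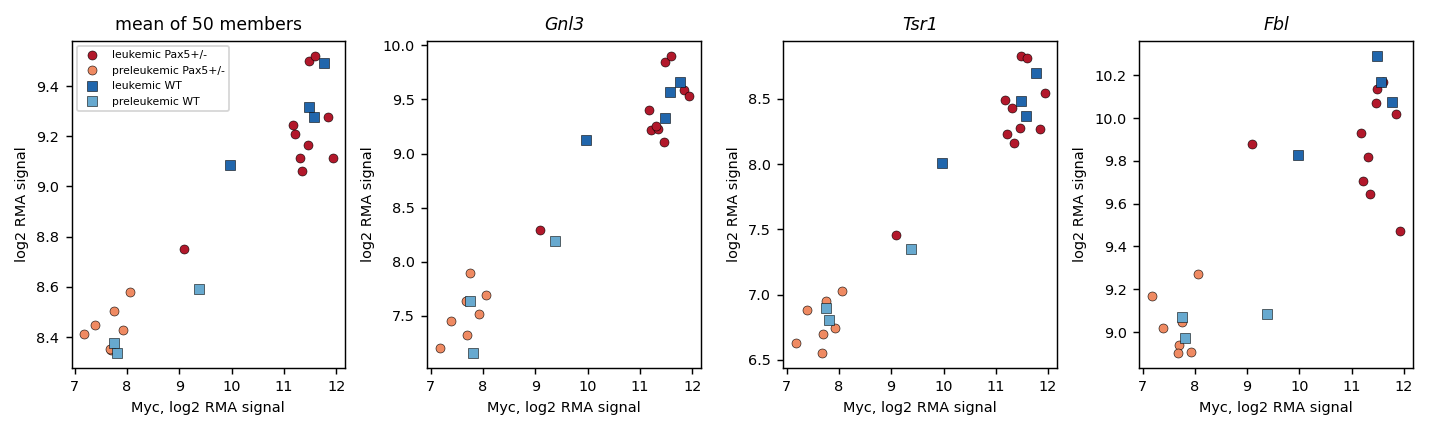
Log2 signal of the mean over the 50 measured members and of Gnl3, Tsr1 and Fbl (vertical axes, each with its own range) against the log2 signal of Myc (horizontal axis), with 1 point per array; circles are Pax5+/-, squares are WT, dark symbols are leukemic and light symbols preleukemic. Leukemic Pax5+/- array 3 (Myc 9.09) lies near the preleukemic points in Gnl3 and Tsr1 but within the leukemic range of Fbl.

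Lists of genes for cell division and other cell types were read against the shares of all genes called, 27.8% higher and 35.1% lower in Pax5+/- and 18.7% and 20.4% in WT. All 23 mitosis genes tested rose in Pax5+/- and 22 of 23 in WT, and their mean ran from 9.02 to 10.01 on leukemic and 8.03 to 8.64 on preleukemic Pax5+/- arrays, and from 9.59 to 9.91 on leukemic and 7.79 to 9.83 on preleukemic WT arrays. Of the B-lineage genes, 7 of 14 fell in each genotype and none rose. Platelet genes rose in 7 of 7 in both genotypes, with means from 7.89 to 10.82 on leukemic and 6.79 to 7.02 on preleukemic Pax5+/- arrays, and from 9.30 to 10.22 on leukemic and 6.88 to 6.99 on preleukemic WT arrays. Stroma and endothelium genes rose in 10 of 12 and fell in 1 of 12 in both genotypes. Granulocyte genes rose in 11 of 16 in Pax5+/- and 0 of 16 in WT, monocyte and macrophage genes in 8 and 4 of 11, erythroid genes in 1 and 4 of 8 (with 1 lower in Pax5+/-), T-cell genes in 3 and 1 of 9 and NK-cell genes in 1 and 0 of 8. The 0 of 16 does not mean that granulocyte genes were level in WT: 14 of 16 had a positive difference, with a median of 1.40. Preleukemic WT array 1 was high in these genes (mean 10.22, against 6.64 and 6.73 on the other preleukemic WT arrays). The part of these cells and of cell division in the stage differences of the ribosome genes was not tested.

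Among the 14 leukemias the mean over the members correlated at 0.47 with the mitosis mean, at 0.03 with the granulocyte mean, at -0.43 with the platelet mean and at -0.07 with the B-lineage mean. Myc correlated at 0.13 with the mitosis mean and at -0.24 with the granulocyte mean (0.10 and -0.68 over the 12 leukemias without the 2 low ones). Leukemic Pax5+/- array 3, lowest in Myc and in the member mean, had a mitosis mean of 9.58 within the leukemic range.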

How the data were processed

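Total RNA of bone marrow B cells was hybridised to Affymetrix mouse gene arrays. The values are log2 signals of 35556 probe sets from 3.48 to 14.2, which the authors made by robust multi-array average (RMA); the submitters' processing notes name the R package oligo (versions not given in the sources used here). RMA equalises the signal distribution between arrays, so a shift of all genes at once is not measurable, and signals of different genes are not comparable levels. Of these probe sets, 21789 carried 1 symbol and 1621 several in the platform table. For each of 19938 named genes the single-symbol probe set with the highest mean was used. A gene was tested if it exceeded the 30th percentile of an array (5.18 to 5.35) on at least 3 of 24 arrays. All 50 measured members did so on every array, so none was selected by the filter.

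Group means were fitted with limma 3.58.1 (R 4.3.3) over all 4 groups, with 5 contrasts, and p values were adjusted by Benjamini-Hochberg over all 15647 genes. A gene was called at an adjusted p under 0.05. Correlations were computed with scipy 1.17.1. The fits were tested on simulated data. The labels do not say that replicates came from separate animals, so p values measure the spread between these samples, and the number of arrays limits their precision. No batch was given in the labels.

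The members and lists were chosen with earlier results of these data known. Named were all 54 members, in each role the 3 called members with the largest difference and all those not called or lower, in comparisons without a call the 2 members with the smallest p, the 6 highest and 6 lowest correlations with Myc, and of each wider list the 2 called genes that rose and the 2 that fell most in Pax5+/-. Alternatives covered filters, normalization, covariates, weights, choice of probe set, a replicate block and each array left out in turn. The fits without the 3 arrays that stand apart were chosen after seeing the data.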

Additional observations from a re-analysis of the deposited data

Results flagged for a closer look

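In 19 of 153 sets of values (a gene in a group of 4 to 10 arrays) the highest or lowest array lay far from the others by Dixon's criterion, which chance alone meets in about 1 of 20 sets. Leukemic Pax5+/- array 3 gave 9 of the 19, each as the lowest value of its group: Myc (9.09), Srm (9.24), Nop58 (8.37), Heatr1 (8.73), Tsr1 (7.46), Nop2 (8.20), Nop16 (10.17), Noc3l (7.26) and Gnl3 (8.29). Leukemic WT array 1 was lowest in Myc (9.97) and Noc4l (8.96), and leukemic WT array 3 was highest in Utp18 (8.02) and Utp20 (8.99). Leukemic Pax5+/- array 10 was highest in Ncl (11.45) and Npm1 (11.36), and leukemic Pax5+/- array 8 stood apart in Nip7 (8.55). Among preleukemic Pax5+/- samples, array 1 stood apart in Rrp9 (7.17), array 3 in Eif4e (9.43) and array 5 in Eif4ebp1 (9.09).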

How the results depend on the processing

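The count of members higher in leukemia was 39 to 45 in Pax5+/- (main value 44) and 36 to 43 in WT (41) over all alternatives, and no result reversed. The 43 in WT came from the fit with the Y-linked class as covariate. In WT that class goes wholly with stage, so its effect was estimated from Pax5+/- arrays and that fit cannot separate sex from stage in WT. Members lower in Pax5+/- numbered 1 instead of 2 with arrays centred on their medians, with repeated quantile normalization and without the 3 arrays that stand apart, and 1 to 2 when 1 array was left out; Ubtf was the call lost. Members lower in WT numbered 0 instead of 1 with centred arrays, with array weights by group, in a fit of only the groups compared, with repeated quantile normalization and the Y-linked class as covariate, and 0 to 1 when 1 array was left out; Eif4ebp1 was the call lost. Before leukemia, 1 member, Polr1a, was lower in Pax5+/- than in WT with only the groups compared and without the 3 arrays, instead of 0. The count of positive slopes on Myc was 0 to 1 when 1 leukemia was left out. The causes were not tested. The counts of 0 members for the leukemic genotypes and for the difference of the stage differences held under every alternative run. A fit of only the groups compared was not run for that difference, since it needs all 4 groups. Among single members, 25 alternative values in Pax5+/- and 48 in WT lost their call, and 2 and 7 gained one.

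The labels do not say whether equal replicate numbers pair samples. Over 24 pairs of same-numbered arrays the correlation of deviations ran from -0.36 to 0.32, with 4 over 0.1. Differently numbered pairs were not compared, so these values do not settle whether the numbers pair samples. With the replicate block 39 members were higher in Pax5+/- and 37 in WT. It ended the Pax5+/- calls of Rrn3 (0.13, adjusted p = 0.154), Noc3l (0.25, adjusted p = 0.0772), Eif4e, Utp18 and Bop1 and the WT calls of Rrp9, Ltv1, Imp4 and Bop1. All measured members lay above the dim level on every array, Rrs1 only narrowly.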
